A study of Mus musculus with 6 samples.

Results

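Transcript levels of 10 genes of the canonical Wnt pathway were followed in mouse embryonic stem cells that lacked DGCR8, carried wild-type DGCR8 or carried the E518K form of it. The 10 genes are the secreted antagonists Notum and Dkk1, the intracellular feedback inhibitors Axin2 and Nkd1, the membrane ubiquitin ligases Znrf3 and Rnf43, the target transcription factor Sp5, and Lef1, Tcf7 and Tcf7l1 of the TCF/LEF family. They were taken by symbol from 21978 entries of the deposited gene tables, and all 10 were found once. The set was chosen by known role and on measured levels of these same libraries. Differences of the 10 genes between the groups are therefore given as a description, with standard errors and no p-value. How many of the 10 passed the threshold of the fit over all genes is counted once, beside the same share of all genes, and supports nothing.

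DGCR8 is the RNA-binding partner of the nuclease DROSHA and is needed to cut most primary microRNA transcripts, and E518K is a substitution in it found in Wilms tumours. The data are mRNA sequencing of 6 libraries in 3 groups, with 2 libraries a group. KO libraries 1 and 3 have the genotype DGCR8 -/- and were not transfected. The wt clones 12 and 16 are labelled DGCR8 wt/wt and received the plasmid pSB ET iE-FlagDGCR8-wt, together with a second one, pCMV(CAT)-SB100X. The E518K clones 8 and 15 are labelled DGCR8 E518K/E518K and received pSB ET iE-FlagDGCR8-E518K with the same second plasmid. All cells, KO included, were given doxycycline at 300 ng/mL for 48 h. All were also grown without feeder cells on gelatin, with leukemia inhibitory factor, the GSK3 inhibitor CHIR99021 at 3 µM and the MEK inhibitor PD0325901 at 1 µM. The series' text speaks of independent clones, but both KO titles carry the number 261, so the spread between the KO libraries may be technical. Untransfected wild-type cells and cells without the GSK3 inhibitor are not analysed here, so the KO group differs from the other groups in transfection as well as in DGCR8.

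When a Wnt ligand binds Frizzled and LRP receptors, GSK3 no longer marks beta-catenin for destruction, and beta-catenin enters the nucleus and joins TCF/LEF factors on their target genes. A GSK3 inhibitor acts at the same step from inside the cell, so targets can be transcribed without ligand. Several of the targets encode inhibitors of the pathway itself: NOTUM removes the lipid from Wnt ligands, DKK1 blocks LRP coreceptors, AXIN2 rebuilds the destruction complex, and ZNRF3 and RNF43 take Frizzled receptors off the cell surface. In embryonic stem cells Tcf7l1 acts mainly as a repressor of pluripotency genes, and GSK3 inhibition relieves that repression.

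TCF/LEF factors bind DNA at sites around the core CTTTG, with CTTTGAA and CTTTGAT among the preferred forms. RefSeq promoter windows on GRCm38.p6, from 250 bases before to 50 bases after each annotated start, were found for 8 of the 10 genes. Notum and Znrf3 had no entry. The longer motifs were searched on both strands, and each contains the core. The windows of Sp5, Dkk1 and Axin2 are shown because Sp5 and Dkk1 hold the motif and Axin2, a widely used target gene, holds not even the core; the motif is in capitals.
Sp5, chr2:70474673-70474972, plus strand, CTTTGAT at position -104 from the start: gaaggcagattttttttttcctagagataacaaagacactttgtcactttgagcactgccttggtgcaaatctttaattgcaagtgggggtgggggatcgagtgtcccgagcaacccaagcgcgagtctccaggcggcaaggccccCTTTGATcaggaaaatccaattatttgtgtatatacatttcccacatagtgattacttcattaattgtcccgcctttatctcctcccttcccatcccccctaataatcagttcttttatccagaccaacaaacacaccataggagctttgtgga
Dkk1, chr19:30549447-30549746, minus strand, CTTTGAA at position -117 from the start: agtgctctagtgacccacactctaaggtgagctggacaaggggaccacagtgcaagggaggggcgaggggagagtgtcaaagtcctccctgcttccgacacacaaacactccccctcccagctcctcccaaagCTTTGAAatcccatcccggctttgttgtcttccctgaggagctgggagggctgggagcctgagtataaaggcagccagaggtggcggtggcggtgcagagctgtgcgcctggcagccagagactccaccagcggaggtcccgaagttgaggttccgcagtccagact
Axin2, chr11:108920099-108920398, plus strand, no motif: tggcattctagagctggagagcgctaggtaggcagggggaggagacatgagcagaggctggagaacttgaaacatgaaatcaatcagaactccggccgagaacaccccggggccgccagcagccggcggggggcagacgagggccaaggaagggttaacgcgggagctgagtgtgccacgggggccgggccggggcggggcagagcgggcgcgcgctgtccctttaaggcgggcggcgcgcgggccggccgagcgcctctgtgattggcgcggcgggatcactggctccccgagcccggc
The motif was present in 2 of the 8 genes, or 25%, against 855 of 11657 tested genes with a window, or 7.33%. The core alone was present in 4 of the 8 genes, or 50%, against 52.9% of tested genes. Sp5 held 5 copies of the core and Dkk1 held 4. These are matches of letters in a short window and say nothing of sites outside it.

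The abundant microRNAs of mouse embryonic stem cells include the miR-290 and miR-302 families, whose members depend on DGCR8 and share a seed. Mature sequences from RefSeq are shown with the seed, bases 2 to 8, in capitals, because they define the match searched in the 3′ UTRs.
mmu-miR-291a-3p: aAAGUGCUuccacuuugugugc
mmu-miR-294-3p: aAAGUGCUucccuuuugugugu
mmu-miR-295-3p: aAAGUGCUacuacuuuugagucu
mmu-miR-302b-3p: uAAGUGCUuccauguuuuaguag
mmu-miR-302d-3p: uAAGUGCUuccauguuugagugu
The complementary letters AGCACTT were found in the longest annotated 3′ UTR of 3 of the 10 genes, or 30%, against 2597 of 14809 tested genes, or 17.5%. The median 3′ UTR length was 1331 bases for the 10 genes and 1284 bases for all tested genes. Each of the 3 matches is shown within 24 bases of the UTR on GRCm38, with the match in capitals.
Lef1, chr3:131224066-131224089, plus strand: tgtaaaaagcccAGCACTTgaatt
Tcf7, chr11:52252456-52252479, minus strand: acctataaccccAGCACTTgcgag
Znrf3, chr11:5276703-5276726, minus strand: tatttctcccatAGCACTTaatat
Notum, Sp5, Rnf43, Axin2, Tcf7l1, Dkk1 and Nkd1 held no match in their longest annotated 3′ UTR. No microRNA was measured in the files used here.

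The 6 libraries held between 73642784 and 75121971 counted reads, and 16498 genes passed the filter on low counts, among them all 10. Levels are given as CPM, each count scaled to a fixed library size after adjustment by the trimmed mean of M values (TMM), and values are listed for KO libraries 1 and 3, wt clones 12 and 16, and E518K clones 8 and 15, in that order. Reads of Dgcr8 itself stood at 40 and 37.1 CPM in KO, against 195.5 and 992.4 in wt and 820.6 and 420.2 in E518K. Dgcr8 was thus lowest in both KO libraries (KO against wt -3.95 ± 0.73, adjusted p = 0.00316). That call was lost without wt clone 16 (-2.35), without KO library 1 (-4.00) or 3 (-3.89), with the KO libraries summed (-3.94) and with no filter on low counts (-3.96). The level of Dgcr8 differed several-fold between the wt clones. The spread within groups was uneven, with a biological coefficient of variation of 2.6% in KO, 20.6% in wt and 9.19% in E518K. The wt clones were the least alike of the 3 pairs. For each gene the 3 groups share 1 estimate of the spread. The close KO pair, which may be technical, can lower that estimate even where only E518K and wt are compared. The uncertainty given below for differences from wt can therefore be too small. Summed CPM of 10 embryonic stem cell markers ranged over 5359.1 to 5458.5 in KO, 6149.0 to 7158.4 in wt and 6496.2 to 6514.2 in E518K, and 8 of these 10 were called lower and 1 higher in KO against wt. Of all tested genes, 29.7% were called lower and 27.4% higher in that comparison. Summed CPM of 8 fibroblast or feeder markers was at most 6.58 in any library, and Dcn and Lum were listed at 0 in some. In bulk RNA, fewer cells with a transcript and less transcript per cell cannot be told apart.

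The secreted antagonist Notum, a carboxylesterase, had the largest log2 differences of the 10 genes between KO and wt and between E518K and wt with all 6 libraries, while Rnf43 had the largest between E518K and KO. Notum lies at chr11:120653788-120661175 on the minus strand of GRCm38. Its level was 519.5 and 505.7 CPM in KO, 72.4 and 70.4 CPM in wt, and 235.1 and 215.9 CPM in E518K. The groups did not overlap, and E518K lay between wt and KO. With 2 libraries a group, groups can separate by chance. How many of all tested genes separate was not counted, here or for the genes below. KO exceeded wt by 2.84 ± 0.07 (SE) on the log2 scale, a fold of 7.18. E518K exceeded wt by 1.66 ± 0.07, a fold of 3.16, and was 2.27-fold below KO, a log2 difference of -1.18 ± 0.06. The wt mean amounted to 13.9% and the E518K mean to 44% of the KO mean. Counts over Notum ran from 5207 to 40174 a library, so counting error was small beside these differences. Transcripts annotated on the opposite strand, Notumos and Myadml2os, overlap Notum, and the counts appear to be without strand. If so, their reads cannot be told apart from those of Notum.

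The target transcription factor Sp5, a zinc finger protein whose promoter window above holds CTTTGAT, had the same order of groups. Sp5 lies at chr2:70474923-70477729 on the plus strand. Its level was 95.3 and 93.4 CPM in KO, 18.3 and 17.2 CPM in wt, and 55.3 and 42.7 CPM in E518K. No library of one group reached those of another, and the E518K clones differed more from each other than the KO or wt libraries did. The log2 difference was 2.41 ± 0.13 for KO against wt, a fold of 5.33. It was 1.47 ± 0.12 for E518K against wt, a fold of 2.77. E518K lay below KO by a fold of 1.93, a log2 difference of -0.95 ± 0.12. The means of wt and E518K were 18.8% and 51.9% of the KO mean. No annotated gene overlaps Sp5.

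Rnf43, one of the membrane ubiquitin ligases, was high in KO and low in both other groups. It lies at chr11:87662722-87735539 on the plus strand. It is overlapped by 2 annotated genes, 1110028F11Rik and Gm25968, whose reads cannot be told apart from its own. Rnf43 had 849 and 813 counts in KO, against 164 and 154 in wt and 158 and 218 in E518K. In CPM this was 11 and 10.5, 2.26 and 2.08, and 2.19 and 2.99. The E518K and wt libraries overlapped, and both KO libraries lay far above them. The log2 difference was 2.31 ± 0.20 for KO against wt (fold 4.95) and -2.05 ± 0.19 for E518K against KO (fold 4.15). For E518K against wt it was 0.25 ± 0.19. As shares of the KO mean, wt stood at 20.2% and E518K at 24.1%, unlike Notum and Sp5, for which the E518K share was 44% and 51.9%.

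Its paralog Znrf3, at chr11:5276324-5444847 on the minus strand, followed the same order with smaller differences. Znrf3 stood at 31.9 and 31.3 CPM in KO, 21.7 and 21.1 CPM in wt, and 22.8 and 23.1 CPM in E518K. The 3 groups did not overlap, though the E518K clones lay only just above the wt clones. KO exceeded wt by 0.57 ± 0.08 on the log2 scale. E518K differed from wt by 0.10 ± 0.08 and from KO by -0.46 ± 0.08.

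**Figure D1:**
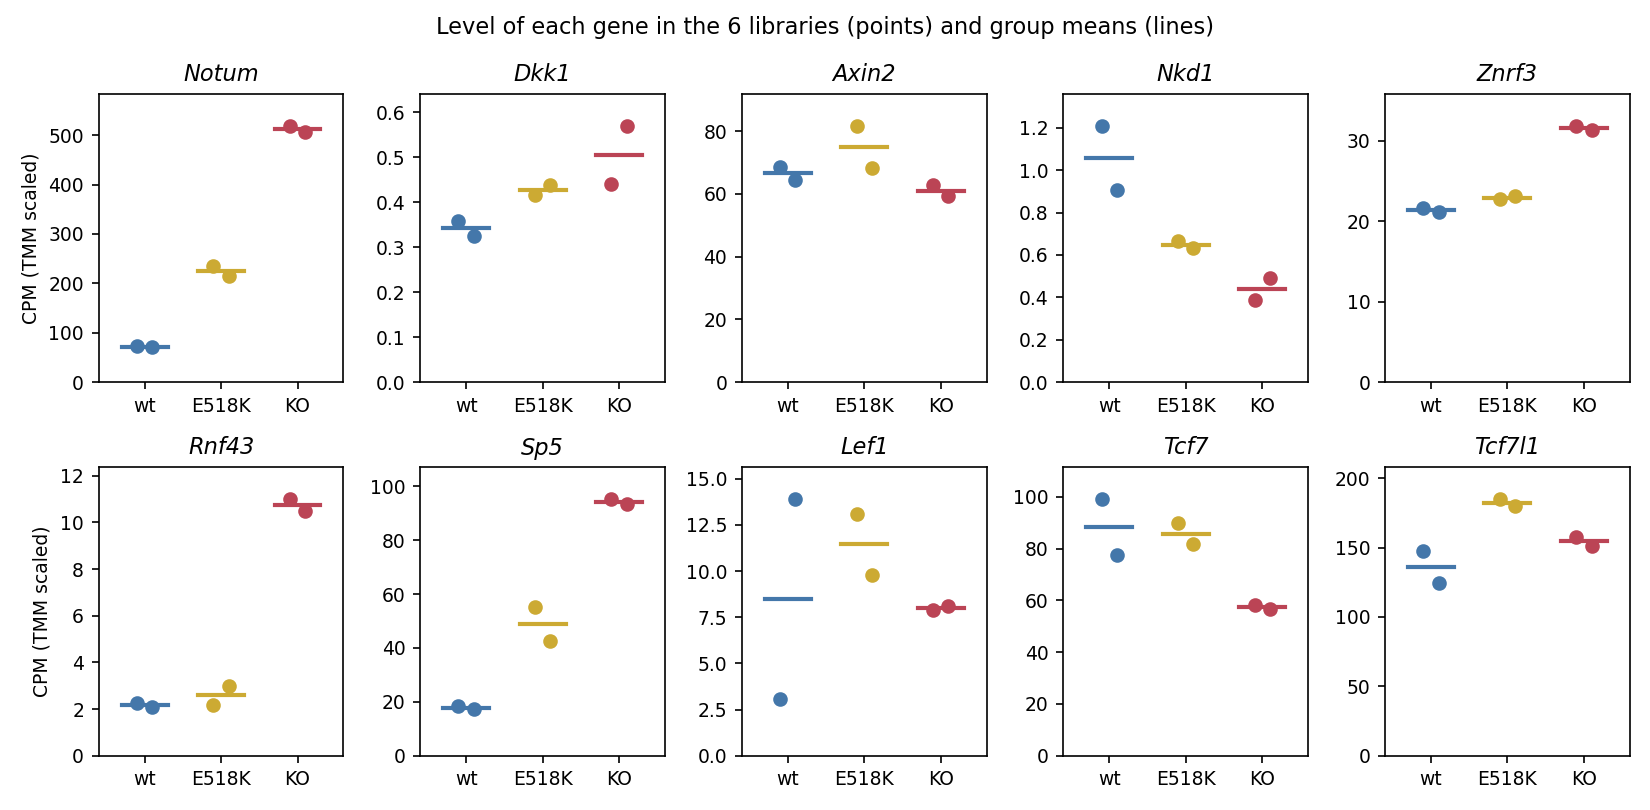
Level of each of the 10 genes in CPM (vertical axes, linear from 0, each with its own range) in the wt, E518K and KO libraries; points are the 2 libraries of a group and lines their mean. Notum and Sp5 step up from wt through E518K to KO, Rnf43 is high in KO alone, and the wt points of Lef1 lie at 3.09 and 13.9 CPM.

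Axin2, a feedback inhibitor and a scaffold of the beta-catenin destruction complex beside Axin1, is widely read as a measure of Wnt output and differed little. It lies at chr11:108920349-108950783 on the plus strand, and an annotated antisense gene, Gm11670, overlaps it. Axin2 stood at 62.7 and 59.5 CPM in KO, 68.7 and 64.6 CPM in wt, and 81.8 and 68.2 CPM in E518K. The KO libraries were the lowest, and E518K clone 15 fell within the range of the wt clones. The log2 difference was -0.12 ± 0.10 for KO against wt and 0.17 ± 0.10 for E518K against wt. For E518K against KO it was 0.30 ± 0.10, and it shrank to 0.16 without E518K clone 8 and to 0.17 or 0.18 with limma on log2 TPM. Axin2 thus did not share the high KO level of Notum, Sp5 and Rnf43.

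Nkd1, an inhibitor of Dishevelled, was scarce throughout, and 1 annotated gene on the same strand, Gm45496, overlaps it. Nkd1, at chr8:88521354-88594884 on the plus strand, had 30 and 38 counts in KO, against 88 and 67 in wt and 48 and 46 in E518K. In CPM these were 0.388 and 0.493, 1.21 and 0.906, and 0.666 and 0.631. The groups did not overlap, with KO lowest, wt highest and E518K between them, the reverse of the order of Notum. At counts this low, such an order can arise by chance. KO differed from wt by -1.26 ± 0.33 on the log2 scale, E518K from wt by -0.71 ± 0.33 and E518K from KO by 0.56 ± 0.34. Without KO library 1 the difference between KO and wt was -1.11, and without KO library 3 it was -1.45.

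Dkk1, whose promoter window also holds the longer motif, was scarce as well. Dkk1, at chr19:30545863-30549665 on the minus strand, had 34 and 44 counts in KO, against 26 and 24 in wt and 30 and 32 in E518K. Both KO libraries exceeded both E518K clones, and these exceeded both wt clones, by few counts. The log2 differences were 0.56 ± 0.38 for KO against wt, 0.32 ± 0.38 for E518K against wt and -0.24 ± 0.37 for E518K against KO. Both differences with E518K were smaller than their standard error.

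Among the TCF/LEF factors, Tcf7 was lower in KO than in both other groups. Tcf7, which encodes TCF1, lies at chr11:52252371-52283014 on the minus strand. It is overlapped by Gm26551 on the same strand and A630014C17Rik on the opposite one, and its counts cannot be told apart from theirs. Its level was 58.2 and 56.7 CPM in KO, 99.1 and 77.5 CPM in wt, and 89.8 and 81.8 CPM in E518K. Both E518K clones fell between the wt clones, and the KO libraries lay below all 4. KO differed from wt by -0.62 ± 0.12 on the log2 scale, E518K from wt by -0.04 ± 0.12 and E518K from KO by 0.58 ± 0.12. The difference between E518K and wt turned to 0.15 without wt clone 12 and to 0.03 without E518K clone 15, and it was -0.21 without wt clone 16.

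Tcf7l1, which encodes TCF3, the main TCF repressor of these cells, had the most counts of the family. It lies at chr6:72626378-72789254 on the minus strand and is overlapped by 6 annotated genes, 3 of them on the opposite strand. Its level was 157.7 and 151.3 CPM in KO, 147.6 and 124.4 CPM in wt, and 185.0 and 179.7 CPM in E518K. The E518K clones were the highest and the wt clones the lowest, without overlap. The log2 difference was 0.18 ± 0.09 for KO against wt, 0.42 ± 0.09 for E518K against wt and 0.24 ± 0.09 for E518K against KO. Without wt clone 12 the difference between KO and wt was 0.31.

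Lef1, the family member that mainly activates targets, could not be ordered against wt, because the wt clones disagreed. It is overlapped by 2 annotated genes, 1 of them on the opposite strand. Lef1, at chr3:131110471-131224356 on the plus strand, had 610 and 627 counts in KO, against 224 and 1029 in wt and 947 and 713 in E518K. In CPM this was 7.89 and 8.13, 3.09 and 13.9, and 13.1 and 9.78. The wt clones were the lowest and the highest of all 6 libraries, and both E518K clones lay above both KO libraries. The log2 difference was -0.09 ± 0.57 for KO against wt, 0.43 ± 0.56 for E518K against wt and 0.52 ± 0.56 for E518K against KO. The groups share an estimate of the spread, so the last standard error takes in the disagreement of the wt clones. With only the 4 libraries of E518K and KO the difference was also 0.52. Without wt clone 16, the difference was 1.37 for KO against wt and 1.89 for E518K against wt. Without wt clone 12, the same differences were -0.80 and -0.28. Dgcr8 was also far lower in wt clone 12 (195.5 CPM) than in wt clone 16 (992.4 CPM), and whether this has a part in the Lef1 difference was not tested.

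**Figure D2:**
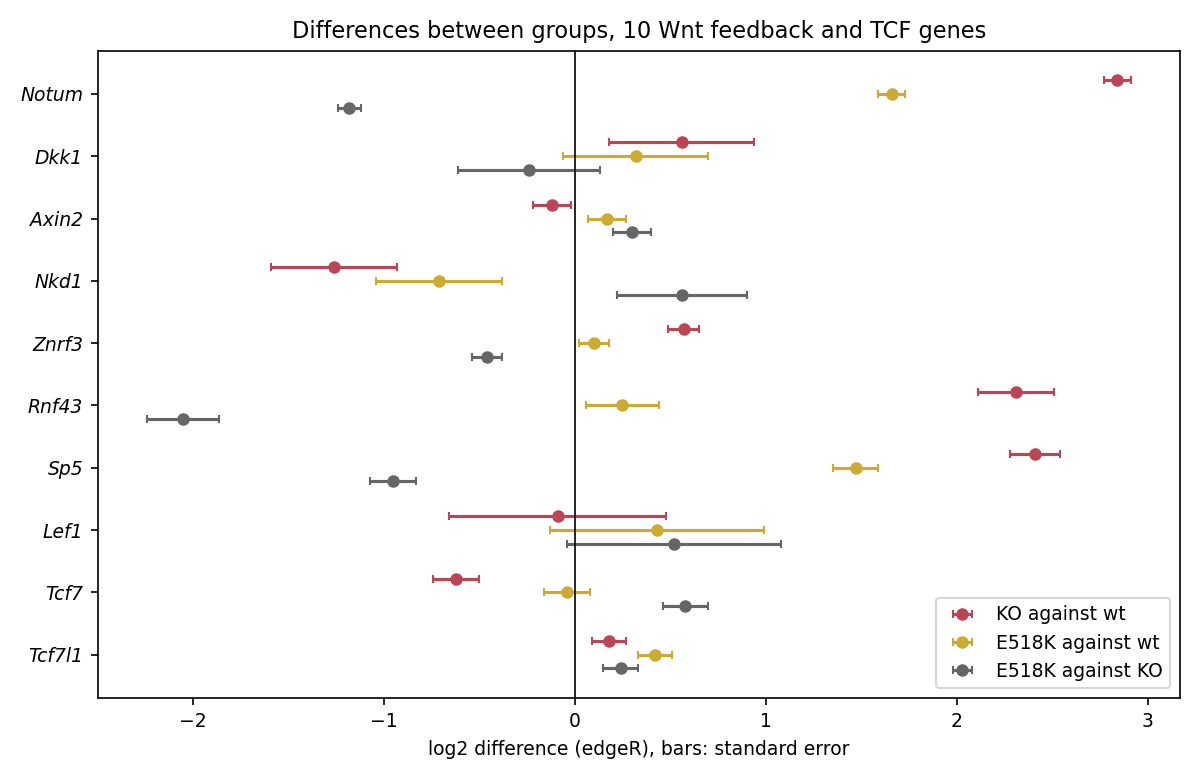
Log2 difference (horizontal axis) of each of the 10 genes for KO against wt, E518K against wt and E518K against KO, with bars of 1 standard error from the edgeR fit. Notum and Sp5 are furthest to the right for both comparisons with wt, and the bars of Lef1, 0.56 to 0.57 long, are the widest.

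In counts of calls, at a Benjamini-Hochberg adjusted p under 0.05 over all tested genes, 6 of the 10 genes were called between KO and wt, with 4 higher (Notum, Sp5, Rnf43 and Znrf3) and 2 lower (Tcf7 and Nkd1) in KO. Of all tested genes, 57.2% were called in that comparison, 27.4% higher and 29.7% lower. Between E518K and wt, 3 of the 10 were called, all higher in E518K (Notum, Sp5 and Tcf7l1), against a background of 23.7%, with 11.3% higher and 12.5% lower. Between E518K and KO, 6 of the 10 were called, with 2 higher (Tcf7 and Axin2) and 4 lower (Notum, Sp5, Rnf43 and Znrf3) in E518K, against 41.8%, with 22% higher and 19.8% lower. Because the genes were picked with these contrasts in view, nothing is read from the counts. They became 5 for E518K against wt without wt clone 16 and 3 for E518K against KO without KO library 3. Over 14 alternatives, the call in E518K against KO was lost in 7 for Axin2, 3 for Znrf3 and 2 for Tcf7. That of Nkd1 in KO against wt and that of Tcf7l1 in E518K against wt were lost in 3 each. The median log2 difference of the 10 genes was 0.37 for KO against wt, 0.29 for E518K against wt and 0.00 for E518K against KO, beside -0.02 for all tested genes in each. The comparisons share libraries, KO or wt or E518K entering 2 of them each, so they are not independent. Over all tested genes, the E518K against wt calls split into 1862 higher and 2055 lower with TMM and into 1472 and 2455 with upper-quartile factors. With limma on log2(TPM + 1), which changes the test and the measure as well as the scaling, they split into 883 and 2292. For E518K against KO the split was 3636 and 3266, and 2611 and 3750 with that limma fit.

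Notum alone accounted for most of the change in the combined counts of the 10 genes. Together they took 73084 and 70800 counts in KO, against 31512 and 29017 in wt and 49436 and 45590 in E518K. Without Notum the totals were 32910 and 31783 in KO, against 26266 and 23810 in wt and 32500 and 29852 in E518K, so the E518K clones then fell near the KO libraries. Notum held 55% and 55.1% of the 10 genes' counts in KO, against 16.6% and 17.9% in wt and 34.3% and 34.5% in E518K. In wt the largest share was that of Tcf7l1, at 34% and 31.7%, while in KO Tcf7l1 held 16.7% and 16.5%. The share of Sp5 was 10.1% and 10.2% in KO, against 4.2% and 4.38% in wt and 8.05% and 6.83% in E518K.

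**Figure D3:**
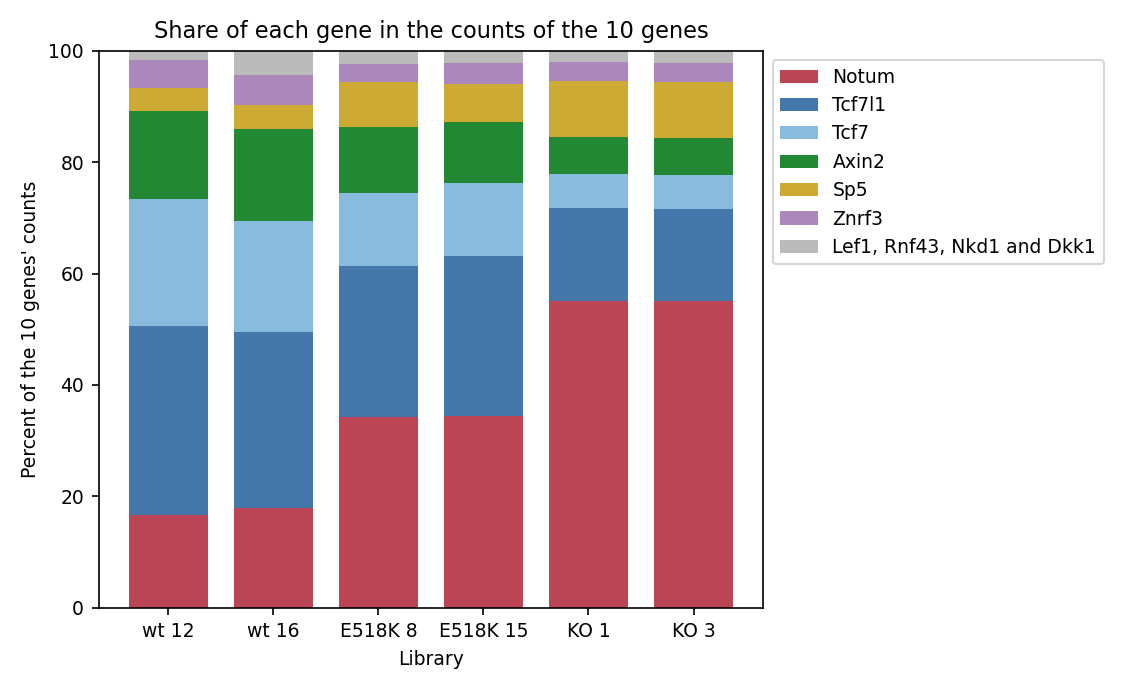
Percent of the summed counts of the 10 genes held by each gene (vertical axis) in each of the 6 libraries (horizontal axis), with Lef1, Rnf43, Nkd1 and Dkk1 drawn together. The Notum segment is 16.6% to 17.9% high in wt, 34.3% to 34.5% in E518K and 55% to 55.1% in KO.

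Levels of different genes were compared per length, in the deposited TPM (a length-scaled share of transcripts), whose length term is the whole genomic span of a gene. In KO the mean TPM ran from Notum (475.1) over Sp5 (230.2), Axin2 (13.8), Tcf7 (12.8), Tcf7l1 (6.49), Znrf3 (1.28), Rnf43 (1.01), Dkk1 (0.91) and Lef1 (0.481) to Nkd1 (0.041). Only the neighbours Rnf43 and Dkk1 overlapped between libraries there. In wt the order was Notum (64.1), Sp5 (41.9), Tcf7 (19), Axin2 (14.5), Tcf7l1 (5.52), Znrf3 (0.841), Dkk1 (0.595), Lef1 (0.508), Rnf43 (0.198) and Nkd1 (0.0951), with the ranges of Dkk1 and Lef1, and of Lef1 and Rnf43, overlapping. In E518K it was Notum (193.7), Sp5 (110.6), Tcf7 (17.8), Axin2 (15.6), Tcf7l1 (7.11), Znrf3 (0.864), Dkk1 (0.715), Lef1 (0.637), Rnf43 (0.227) and Nkd1 (0.056), with Dkk1 and Lef1 overlapping. Tcf7 and Axin2 thus changed places between KO and the other groups, and Rnf43 moved from rank 7 in KO to rank 9 in wt and E518K. A span length favours compact genes such as Sp5 and Notum. Per kilobase of merged exons, Notum remained at rank 1 in KO (212.9 CPM per kb) and E518K (93.6), but in wt it came to rank 3 (29.6), with Tcf7l1 at 34.7 and Tcf7 at 33.6. The ranges of Tcf7l1 and Tcf7, and of Tcf7 and Notum, overlapped there. Since the counts appear to take in introns, an exon length would in turn favour genes with long introns, such as Tcf7l1. On that scale Tcf7 exceeded Axin2 in KO as well, at 21.9 against 11.1, so their change of places holds for the deposited TPM only.

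Over the 6 libraries, which share their culture and differ by group, the log2 CPM of Notum and Sp5 had a Pearson r of 1.00 and that of Rnf43 and Znrf3 one of 0.99. Nkd1 ran against Notum (r = -0.95) and Tcf7 against Rnf43 (r = -0.93). Axin2 was not close to any other of the 10, with its largest value against Tcf7 (r = 0.74), and Lef1 had values between -0.37 and 0.21. These are descriptions of 6 points in 3 groups and carry no test. Among 12154 genes with a log2 CPM of at least 1 on average, genes near Axin2 included RP23-218K15.5 (r = 0.978) and Gar1 (r = 0.978), and 16 genes, or 0.132%, exceeded 0.95. The nearest to Lef1 were Hs6st3 (0.991), AC113276.3 (0.989) and Macrod2 (0.979), and 20 genes, or 0.165%, exceeded 0.95. Hs6st3 stood at 81.4 CPM in wt clone 12 and 99.4 in wt clone 16, and Macrod2 at 8.77 and 15.3. Being picked for likeness to Lef1 over these libraries, such genes were bound to separate the wt clones, so this adds nothing.

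The rest of the pathway was read from 109 further symbols listed by role. Of these, 108 were in the table and 96 passed the filter, and the absent Tle5 is a second symbol of Aes. The lists were made with earlier results of these data known, and the named genes were picked from them by smallest p. Their adjusted p-values are therefore a description and give no independent support. Between KO and wt, 24 of the 96 rose and 34 fell in KO, with a median log2 difference of -0.05. Between E518K and wt, 11 rose and 14 fell in E518K (median -0.06), while upper-quartile factors gave 11 and 20, and limma on log2(TPM + 1) or log2(TPM + 0.1) gave 6 and 22. Between E518K and KO, 22 rose and 22 fell (median 0.03). As shares, 60.4%, 26% and 45.8% of the listed genes were called, beside 57.2%, 23.7% and 41.8% of all tested genes. These counts rest on single libraries. For KO against wt, 37 were called without KO library 3. For E518K against wt the count was 12 without either KO library, 9 without E518K clone 8, 4 without E518K clone 15 and 43 without wt clone 16. For E518K against KO it was 25 without KO library 1, and 28 without KO library 3 or without E518K clone 8. Calls here are from edgeR's quasi-likelihood test with Benjamini-Hochberg adjustment.

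Among 16 tested genes for ligands and ligand secretion, 6 rose and none fell in KO against wt, and the median was 0.69. These 6 are 37.5% of the list, beside 57.2% of all tested genes called, 27.4% higher and 29.7% lower. Most of the 16 had means under 1 CPM in every group, so the median rests largely on scarce transcripts. Of the 6, Wnt3, Wnt3a and Wnt8a averaged 0.919, 0.841 and 0.693 CPM in KO, against 0.233, 0.177 and 0.129 in wt. The others of the 6, Wnt11, Porcn and Wls, had higher levels. Wnt11, a ligand, stood at 9.05 and 8.66 CPM in KO, against 3.31 and 2.16 in wt and 2.89 and 2.39 in E518K. It rose by 1.69 ± 0.23 in KO against wt (adjusted p = 0.000893) and fell by 1.75 on the log2 scale in E518K against KO (SE 0.23, adjusted p = 0.00135). Porcn, the acyltransferase that puts on the lipid that NOTUM removes, stood at 24.7 and 23.7 CPM in KO, against 16.2 and 14.3 in wt and 35 and 31.3 in E518K. It rose by 0.67 ± 0.10 in KO (adjusted p = 0.00149) and by 1.12 ± 0.10 in E518K (adjusted p = 0.00149) against wt, and its level was highest in the E518K clones. In E518K against wt, 2 of the 16 rose and none fell, the other being Wnt8a at 1.82 ± 0.52 (adjusted p = 0.0424). Wnt8a had 7 to 61 counts a library, and its call was lost without E518K clone 8 (1.34), E518K clone 15 (2.20), wt clone 12 (1.50) or either KO library (1.83 in both), and with limma on log2(TPM + 1) (0.38). In E518K against KO, 1 rose and 4 fell, among them Wls, the carrier that brings Wnt to the surface, by 2.19 (SE 0.44, adjusted p = 0.0072).

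Receptors and coreceptors moved both ways. Of 20, 5 rose and 7 fell in KO against wt, 2 rose and 5 fell in E518K against wt, and 4 rose and 7 fell in E518K against KO. These are 60%, 35% and 55% of the list, beside 57.2%, 23.7% and 41.8% of all tested genes in the same comparisons. Fzd10 stood at 132.4 and 125.0 CPM in KO, against 60.9 and 64.5 in wt and 81.4 and 65.7 in E518K. It rose by 1.04 ± 0.11 in KO against wt (adjusted p = 0.000263) and fell by 0.81 in E518K against KO (SE 0.11, adjusted p = 0.00124). Fzd5 fell by 0.60 in KO against wt (SE 0.08, adjusted p = 0.000734). Fzd6 fell by 1.56 in E518K against KO (SE 0.16, adjusted p = 0.00057). The coreceptor Lrp5 fell by 0.79 in E518K against wt (SE 0.10, adjusted p = 0.00335), with 58.4 and 53.6 CPM against 88 and 105.3, and without E518K clone 15 the value was -0.72 and the call was lost. Kremen1, a receptor for DKK1, fell by 0.50 in the same comparison (SE 0.10, adjusted p = 0.0133), a call lost without E518K clone 8 (-0.44), without E518K clone 15 (-0.56) and without either KO library (-0.50 in both).

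Of 10 tested secreted modulators, 1 rose and 3 fell in KO against wt, 1 rose in E518K against wt, and 3 rose and 1 fell in E518K against KO. The shares called, 40%, 10% and 40%, compare with 57.2%, 23.7% and 41.8% of all tested genes. Apcdd1, a Wnt inhibitor at the membrane, stood at 18 and 19.5 CPM in KO, against 7.3 and 5.34 in wt and 5.68 and 5.86 in E518K. It rose by 1.57 ± 0.17 in KO against wt (adjusted p = 0.000304) and fell by 1.70 in E518K against KO (SE 0.17, adjusted p = 0.000476), and both E518K clones lay within the range of the wt clones. Rspo1, a ligand that counters ZNRF3 and RNF43, had 4 and 12 counts in KO and 45 to 87 in the other libraries, and fell by 3.10 in KO against wt (SE 0.57, adjusted p = 0.00312). Dkk3 rose by 0.78 ± 0.21 in E518K against wt (adjusted p = 0.0372) and by 1.24 ± 0.22 against KO (adjusted p = 0.00382). The former was 0.50 without wt clone 16, and its call was lost without E518K clone 8 (0.78), without E518K clone 15 (0.80) and without either KO library (0.78 in both).

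Of 18 transducers and destruction complex genes, 4 rose and 9 fell in KO against wt. None rose and 2 fell in E518K against wt, and 2 rose and 4 fell in E518K against KO. That is 72.2%, 11.1% and 33.3% of the list called, against 57.2%, 23.7% and 41.8% over all tested genes. The casein kinase gene Csnk1d fell by 0.51 (SE 0.06, adjusted p = 0.000594) and Btrc, which encodes the ubiquitin ligase subunit that takes up marked beta-catenin, by 0.42 (SE 0.06, adjusted p = 0.000905) in KO against wt. Csnk1e stood at 78.6 and 79.1 CPM in KO, against 116.8 and 109.5 in wt and 59.5 and 52 in E518K. It fell by 1.02 in E518K against wt (SE 0.08, adjusted p = 0.00101) and by 0.50 against KO (SE 0.08, adjusted p = 0.003). Gsk3b, which encodes a target of the inhibitor in the medium, fell by 0.57 in E518K against KO (SE 0.06, adjusted p = 0.000729), with 93.2 and 93 CPM in KO, against 69.9 and 74.1 in wt and 63.1 and 62.7 in E518K. Dvl1 fell by 0.53 in E518K against wt (SE 0.11, adjusted p = 0.0143), but Dvl1 overlaps Tas1r3, and the call was lost without E518K clone 8 (-0.59) and without E518K clone 15 (-0.45).

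Of 13 nuclear partners, 2 rose and 8 fell in KO against wt, none rose and 4 fell in E518K against wt, and 6 rose and 1 fell in E518K against KO. In all, 76.9%, 30.8% and 53.8% were called, where all tested genes gave 57.2%, 23.7% and 41.8%. In KO against wt 29.7% of all tested genes fell, and in E518K against wt 12.5% did. Tcf7l2, the TCF/LEF gene outside the 10, stood at 29.8 and 29.3 CPM in KO, against 11 and 12.9 in wt and 13.9 and 13 in E518K. It rose by 1.30 ± 0.11 in KO against wt (adjusted p = 0.000135) and fell by 1.14 in E518K against KO (SE 0.11, adjusted p = 0.000471), opposite in sign to Tcf7 in both comparisons. Aes, a corepressor of the Groucho family, stood at 70.9 and 73.3 CPM in KO, against 173.3 and 140.6 in wt and 102.6 and 98.3 in E518K. It fell by 1.12 in KO (SE 0.10, adjusted p = 0.000163) and by 0.64 in E518K (SE 0.10, adjusted p = 0.00643) against wt. Bcl9, a beta-catenin cofactor, fell by 0.50 in E518K against wt (SE 0.10, adjusted p = 0.0127). Without E518K clone 15 the calls of Aes (-0.60) and Bcl9 (-0.38) in E518K against wt were lost. Ctnnbip1, an inhibitor of the binding of beta-catenin to TCF, rose by 1.11 ± 0.12 in E518K against KO (adjusted p = 0.000673).

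Of 14 other target genes of beta-catenin, 4 rose and 5 fell in KO against wt, 5 rose and 2 fell in E518K against wt, and 4 rose and 3 fell in E518K against KO. The shares called were 64.3%, 50% and 50%, with 57.2%, 23.7% and 41.8% for all tested genes. Ccnd1, the cyclin D1 gene, stood at 486.2 and 490.1 CPM in KO, against 201.5 and 182.2 in wt and 348.8 and 302.3 in E518K. It rose by 1.35 ± 0.09 in KO (adjusted p = 5.22e-05) and by 0.76 ± 0.09 in E518K (adjusted p = 0.00249) against wt, the order of groups seen for Notum and Sp5. Ascl2 ran the other way, at 1.44 and 1.43 CPM in KO, against 12 and 14.6 in wt and 7.08 and 5.35 in E518K. It fell by 3.21 in KO against wt (SE 0.20, adjusted p = 4.95e-05) and by 1.10 in E518K against wt (SE 0.18, adjusted p = 0.00792), the second call being lost without E518K clone 15 (-0.90). It rose by 2.12 ± 0.20 in E518K against KO (adjusted p = 0.000419). Myc stood at 4.47 and 4.9 CPM in KO, against 16.9 and 14.8 in wt and 23.9 and 28.4 in E518K, and rose by 2.48 ± 0.14 in E518K against KO (adjusted p = 9.61e-05).

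**Figure D4:**
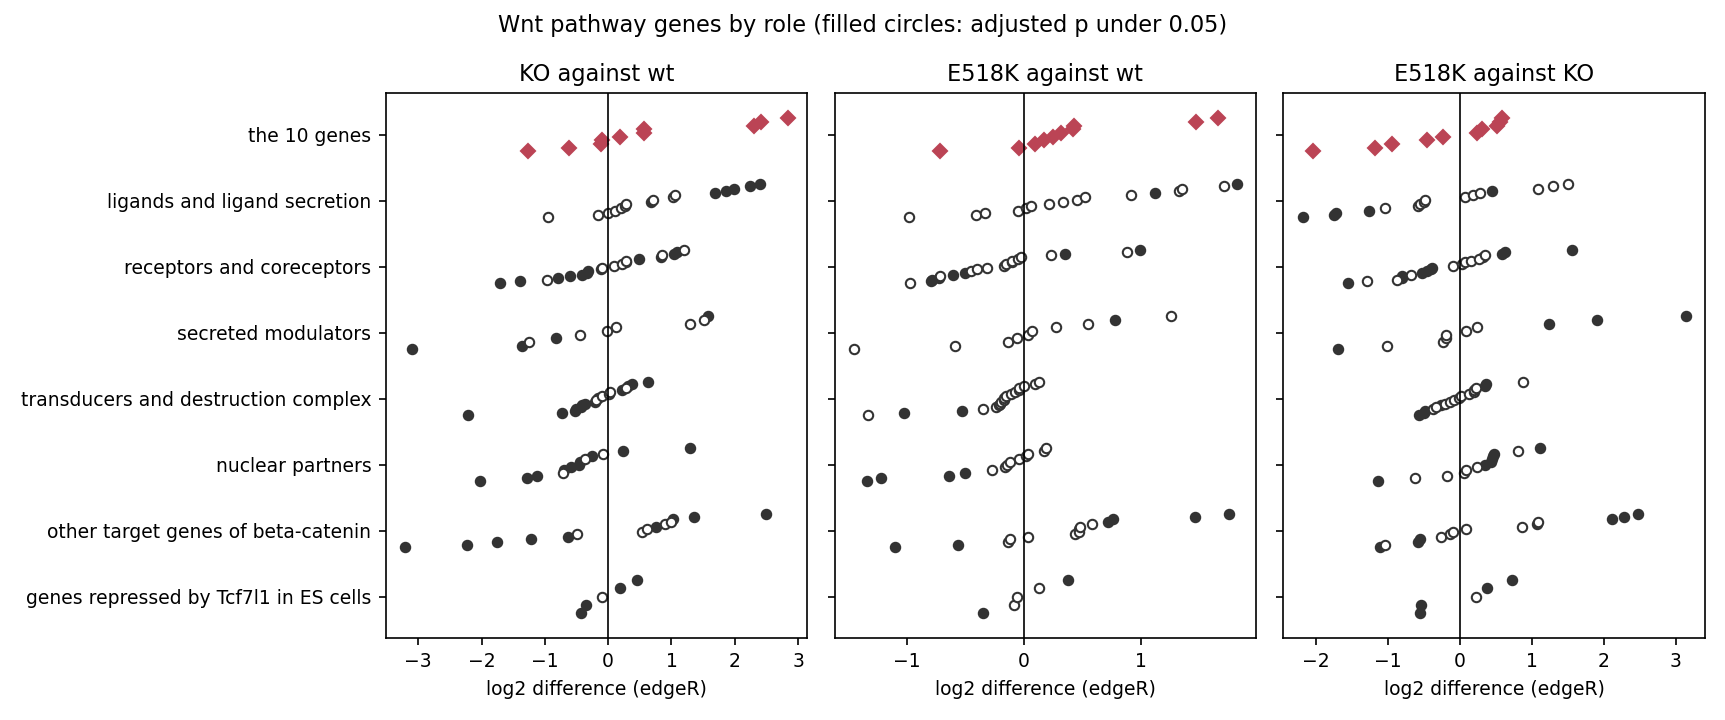
Log2 difference (horizontal axes) of the 10 genes (red diamonds, drawn without a test) and of the other tested Wnt pathway genes by role (black), for the 3 comparisons; filled black points have an adjusted p under 0.05 and vertical offsets only separate the points. The called genes of the pathway lists, 24 higher and 34 lower for KO against wt, lie on both sides of 0.

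The 5 listed genes that Tcf7l1 represses in embryonic stem cells, all transcription factors of the naive state, did not move as a block. In KO against wt, Klf2 rose by 0.45 ± 0.14 (adjusted p = 0.0285) and Tfcp2l1 by 0.19 ± 0.06 (adjusted p = 0.0214). Esrrb fell by 0.43 (SE 0.05, adjusted p = 0.000605) and Nr0b1 by 0.35 (SE 0.07, adjusted p = 0.00598), while Nanog differed by -0.09 ± 0.08 (adjusted p = 0.35). Without wt clone 16 the Nanog value was -0.19 and passed (adjusted p = 0.0118), and without wt clone 12 it was 0.02. The call of Klf2 was lost without KO library 1 (0.42), KO library 3 (0.49), wt clone 16 (0.25) or E518K clone 15 (0.45), and the value was 0.68 without wt clone 12. That of Tfcp2l1 was lost without KO library 1 (0.19) or KO library 3 (0.20) and with upper-quartile factors (0.14), and that of Nr0b1 without KO library 3 (-0.33). In E518K against wt, where Tcf7l1 itself was 0.42 higher, Nr0b1 rose by 0.38 ± 0.07 (adjusted p = 0.0138) and Tfcp2l1 fell by 0.35 (SE 0.06, adjusted p = 0.00695). Both calls were lost without E518K clone 15 (0.35 and -0.37), and that of Nr0b1 also without E518K clone 8 (0.41). Esrrb (-0.06 ± 0.05, adjusted p = 0.471), Klf2 (-0.08 ± 0.14, adjusted p = 0.703) and Nanog (0.13 ± 0.08, adjusted p = 0.241) did not pass, though without wt clone 12 Nanog was 0.24 and passed (adjusted p = 0.0108). In E518K against KO, Nr0b1 rose by 0.73 ± 0.08 (adjusted p = 0.000541) and Esrrb by 0.37 ± 0.05 (adjusted p = 0.00181). In the same comparison Tfcp2l1 fell by 0.55 (SE 0.06, adjusted p = 0.000545), Klf2 fell by 0.54 (SE 0.14, adjusted p = 0.0205) and Nanog differed by 0.22 ± 0.08 (adjusted p = 0.0522), which passed with DESeq2 (0.22) and with upper-quartile factors (0.23). This Klf2 call was lost when either KO library or either E518K clone was left out, with values of -0.40 to -0.66.

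Markers of other lineages were summed in the same way, as Wnt targets are also active there. Summed CPM of 6 primitive streak and mesoderm markers was 18.6 to 19.7 in KO, 29.8 to 32.7 in wt and 33.1 to 34.9 in E518K, with Mesp1 listed at 0 in some libraries; Eomes is in this list and in that of the trophectoderm. Summed CPM of 6 endoderm markers was 1.77 to 2.09 in KO, 2.1 to 2.22 in wt and 1.43 to 1.71 in E518K. Summed CPM of 7 trophectoderm markers was 43.9 to 47.3 in KO, 40.5 to 42 in wt and 44.7 to 46.2 in E518K. The sums of 6 neural markers were 69.4 to 73.5, 52.3 to 55.1 and 67.1 to 76.5. Afp, Elf5 and Neurog2 of these lists were each at 0 in some library. In every library 3 streak, 5 endoderm, 2 trophectoderm and 2 neural markers were under 1 CPM. The streak and endoderm sums thus rest on few genes. Of 5 tested in each list, KO against wt called 1 streak marker higher and 1 lower, 2 endoderm markers lower, 1 trophectoderm marker higher and 3 lower, and 2 neural markers higher. Over all tested genes 57.2% were called there, 27.4% higher and 29.7% lower, so nothing is read from counts this small. The neural sum was thus lower in wt and the streak sum lower in KO, and the stem cell sum was also lower in KO. Their part in the differences of the 10 genes was not tested.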

How the data were processed

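Total RNA of 6 mouse embryonic stem cell libraries was selected with oligo-dT and sequenced as 100 bp pairs on a BGISEQ-500, per the labels' protocols. The authors deposited raw counts per gene and TPM per gene. STAR, bedtools and GRCm38.p6 stand in the submitters' processing notes; their versions and roles were not given in the sources used here. Comparing counts with TPM over 14067 genes gave a length within 5% of the genomic span for 98.5% of them and of the merged exons for 3.61% (GENCODE M21, GRCm38). For gene pairs of which one lies inside the other, the outer gene had at least the inner gene's count in 99.7% of 342 pairs on the same strand and 98.8% of 243 on opposite strands. From this the counts appear to be reads over whole spans without strand, introns included, which is an inference. The length shows only what TPM divides by, and the nested pairs were not set against other pairs of genes. All sample columns were used.

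Counts were fitted with edgeR 4.0.16 in R 4.3.3 (TMM factors, filterByExpr with a minimum count of 10, robust quasi-likelihood F test, 3 residual degrees of freedom over all 6 libraries, Benjamini-Hochberg adjustment over 16498 genes, threshold 0.05). The prior count of log2 CPM was 2. The common biological coefficient of variation was 11.9%. The steps were tested on simulated data with the same spread in every group and few changed genes, in KO only. That test does not cover the uneven spread and the many calls seen here. Alternatives were upper-quartile factors, DESeq2 1.42.0, no filter, 4 libraries only, each library left out, the KO libraries summed, and limma 3.58.1 on log2(TPM + 1) or log2(TPM + 0.1). Where a left-out library leaves 1 in a group, that one is assumed to vary like the other groups.

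The 10 genes and the pathway lists were chosen with earlier results of these data known. Named genes were all 10, the 2 called genes with the smallest p in each pathway list and comparison, all 5 listed Tcf7l1-repressed genes, Dgcr8, and the 3 genes nearest to Axin2 and to Lef1. Of those nearest to Axin2, 1 is not reported here. Beyond the clone numbers, nothing in the labels says how separate the libraries of a group are, so p-values measure only the spread between these libraries. Promoter windows and microRNAs came from RefSeq tables on GRCm38.p6.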

Additional observations from a re-analysis of the deposited data

How the results depend on the processing

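No paired analysis was possible because the groups share no replicate numbers. Of 420 values of the 10 genes under 14 alternatives, 382 kept both sign and call, 18 lost a call, 13 gained one and 7 changed sign. A change of sign was counted as such even where the call changed too. Sizes could still move, and Nkd1 in KO against wt went from -1.26 to as little as -0.07 with its call kept. The lowest and highest log2 differences of Notum were 2.79 and 2.89 for KO against wt, 1.58 and 1.73 for E518K against wt, and -1.29 and -1.11 for E518K against KO. Of 742 values of the named pathway genes and Dgcr8, 670 kept both sign and call, 59 lost a call, 8 gained one and 5 reversed.

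Reversals were as follows, and where no library was left out the cause was not tested. With 1 library left out, Lef1 in KO against wt ran from -0.80 (without wt clone 12) to 1.37 (without wt clone 16), and it was 0.01 with limma on log2(TPM + 1) with or without a filter, and 0.20 on log2(TPM + 0.1). Without wt clone 12 and without wt clone 16, respectively, Lef1 in E518K against wt was -0.28 and 1.89, Tcf7 in E518K against wt 0.15 and -0.21, Nanog in KO against wt 0.02 and -0.19, and Dgcr8 in E518K against wt -0.67 and 1.67. Klf2 in E518K against wt was 0.15 without wt clone 12 and 0.05 without E518K clone 15, which also turned Tcf7 to 0.03. Without E518K clone 8, Dgcr8 in E518K against wt became -0.50.

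Counts of calls moved most when samples were removed. With the KO libraries summed, genes called numbered 6163 for KO against wt, 1909 for E518K against wt and 3267 for E518K against KO, and other Wnt pathway genes 12 for E518K against wt and 26 for E518K against KO. With only the 4 libraries of the groups compared, E518K against wt gave 1999 genes and 12 pathway genes, against 3917 and 25. KO against wt then gave 8705 genes, against 9429, while E518K against KO rose from 6902 to 9530. These fits drop the spread of the third group but also have fewer residual degrees of freedom, and the parts were not separated. With limma on log2(TPM + 1) and no filter, E518K against wt gave 2313 genes and 16 pathway genes. Leaving out 1 library gave 6084 (without KO library 3) to 10958 genes (without wt clone 16) for KO against wt, 644 (without E518K clone 15) to 6987 (without wt clone 16) for E518K against wt and 3285 (without KO library 1) to 9482 (without wt clone 16) for E518K against KO. The pathway counts then ran over 37 to 64, 4 to 43 and 25 to 58, and those of the 10 genes over 5 to 8, 2 to 5 and 3 to 8. Dkk1 and Nkd1 rest on 24 to 88 counts a library, and limma on log2(TPM + 1) shrank low genes, such as Rnf43 in KO against wt to 0.75. Notum in wt ranked 1 by TPM and 3 per kilobase of exons, and genes with a TCF/LEF motif in a promoter window numbered 2, or 4 with the core alone.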
